A study of Saccharomyces cerevisiae with 16 samples.

Results

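The genes described here encode the translation elongation factors of budding yeast, Saccharomyces cerevisiae. They are TEF1 (YPR080W) and TEF2 (YBR118W) for eEF1A, EFB1 (YAL003W), TEF4 (YKL081W) and CAM1 (YPL048W) for the exchange factor eEF1B, EFT1 (YOR133W) and EFT2 (YDR385W) for eEF2, YEF3 (YLR249W) for eEF3, and HYP2 (YEL034W) and ANB1 (YJR047C) for eIF5A. These 10 genes were chosen by name and systematic ID and not by a rule on their values. Earlier results of these data were known when they were chosen. All 10 were among the 7126 genes of the count tables, and all 10 were among the 6106 genes that passed the filter on low counts. Poly(A) RNA had been sequenced from spheroplasts, cells freed of their wall, that had been electroporated with rancRNA_18, with rancRNA_18-M2 or with no RNA. rancRNA_18 is a small ribosome-associated noncoding RNA (rancRNA), and the change that M2 denotes was not given in the sources used here. Each electroporation was followed by 2 kinds of library, polysomal (mRNA from the pooled polysome fractions of a density gradient) and total (mRNA of the cleared lysate). All 6 groups carried the same deletion of TRM10, a tRNA methyltransferase gene, so the no RNA cells are not wild type. The RNA dose and the time after electroporation were not given in the sources used here.

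Elongation is the cycle by which a ribosome adds amino acids to a growing protein. eEF1A with GTP brings each aminoacyl-tRNA to the ribosome, and eEF1B exchanges the spent GDP for GTP. eEF2 moves the ribosome along the mRNA by one codon, eEF3 is a fungal ATPase that helps the used tRNA leave, and eIF5A, which carries the amino acid hypusine, helps where peptide bonds form slowly. Several of these proteins come from pairs of duplicated genes in yeast, which matters for counting reads.

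The pairs were compared over their coding sequences in the RefSeq assembly R64. TEF1 and TEF2 (1377 bases each) differ at only 2 positions, T762C and T834C, where the TEF1 base is given first, the number counts from the first base of the start codon and the TEF2 base is last. EFT1 and EFT2 (2529 bases each) differ at 4 positions, A447G, C882T, C2145T and C2364T, with the EFT1 base first. HYP2 and ANB1 (474 bases each) differ at 43 positions and are 90.9% identical. The following stretches of 60 coding bases, 5′ to 3′, are shown as examples of where a read can be given to 1 gene of a pair. They hold 1 of the 2 TEF1/TEF2 positions, 1 of the 4 EFT1/EFT2 positions and 10 of the 43 HYP2/ANB1 positions. Capitals mark the bases that differ.
TEF1: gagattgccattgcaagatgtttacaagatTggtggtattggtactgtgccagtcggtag
TEF2: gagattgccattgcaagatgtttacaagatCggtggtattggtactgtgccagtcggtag
EFT1: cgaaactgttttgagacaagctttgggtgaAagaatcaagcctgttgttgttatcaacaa
EFT2: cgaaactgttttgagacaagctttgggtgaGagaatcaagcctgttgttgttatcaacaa
HYP2: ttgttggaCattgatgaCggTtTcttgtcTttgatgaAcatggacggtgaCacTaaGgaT
ANB1: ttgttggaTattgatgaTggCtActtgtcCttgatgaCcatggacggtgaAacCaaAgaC
Of all stretches of 50 coding bases in TEF1 or TEF2, 92.47% occur unchanged elsewhere in the genome, and 91.94% of those in EFT1 or EFT2. At 100 bases the shares are 86.54% and 83.54%. In the other 6 genes, ANB1 and HYP2 included, no stretch of 50 coding bases occurs elsewhere. The exchange factor subunits TEF4 and CAM1 are 73.0% identical over 1209 aligned bases. The counting of reads that match several places was not given in the sources used here. The split within TEF1/TEF2 and within EFT1/EFT2 is therefore uncertain, and so is the level of each pair if such reads were dropped. Sums of the pairs are given beside the results that name them. None of the 10 genes overlaps another gene in R64, apart from the small nucleolar RNA genes SNR18 and SNR38 inside the introns of EFB1 and TEF4. SNR18 had 2 to 134 reads in a library, against at least 29416 reads of EFB1.

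The files of the 6 groups held 15 distinct libraries with 16691019 to 31148081 reads in genes, and the second deepest had 21962246. Both files labelled as rancRNA_18 polysomal replicates held the same count in all 7126 genes and were counted as 1 library. The groups thus had 1 rancRNA_18 polysomal, 2 rancRNA_18 total, 3 rancRNA_18-M2 polysomal, 3 rancRNA_18-M2 total, 3 no RNA polysomal and 3 no RNA total libraries. TRM10 had 0 to 5 reads in a library. The labels do not say whether replicates were separate cultures, so p-values measure the spread between these libraries. Libraries with the same replicate number deviated together from their group means in all 26 pairs of libraries from different groups (r from 0.429 to 0.794), so each comparison of polysomal with total mRNA was also fitted with the replicate number as a block.

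The 10 genes together accounted for between 1.045 and 1.529% of all reads. Levels are CPM, read counts scaled to library size after TMM normalization; to compare genes they are divided by coding length in kb. On that scale the levels fell into 3 tiers. In no RNA total mRNA, HYP2 stood highest at 4877.6 CPM per kb, followed by EFB1 at 2854.8, TEF2 at 2412.0 and TEF1 at 1604.3 CPM per kb. A middle tier held YEF3 (395.7 CPM per kb), TEF4 (362.9), CAM1 (356.4), EFT2 (196.2) and EFT1 (129.3). ANB1 was the lowest at 21.8 CPM per kb. The library ranges of neighbours in this order overlapped for EFB1 and TEF2, TEF2 and TEF1, YEF3 and TEF4, and TEF4 and CAM1, and not for the others. In no RNA polysomal mRNA the same 4 genes led, with HYP2 at 6833.7 and EFB1 at 3386.2 CPM per kb, and CAM1 (313.4), TEF4 (308.7) and YEF3 (306.7 CPM per kb) overlapped. Per length and as counted, each eEF1A gene had a higher level than the eEF2 genes, the eEF3 gene, TEF4 and CAM1 in both kinds of no RNA library. If reads matching both genes of a pair were dropped, TEF1, TEF2, EFT1 and EFT2 would be counted too low, and sums would not restore them. The places of these genes in the order, and with them the tiers, are therefore uncertain.

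**Figure D1:**
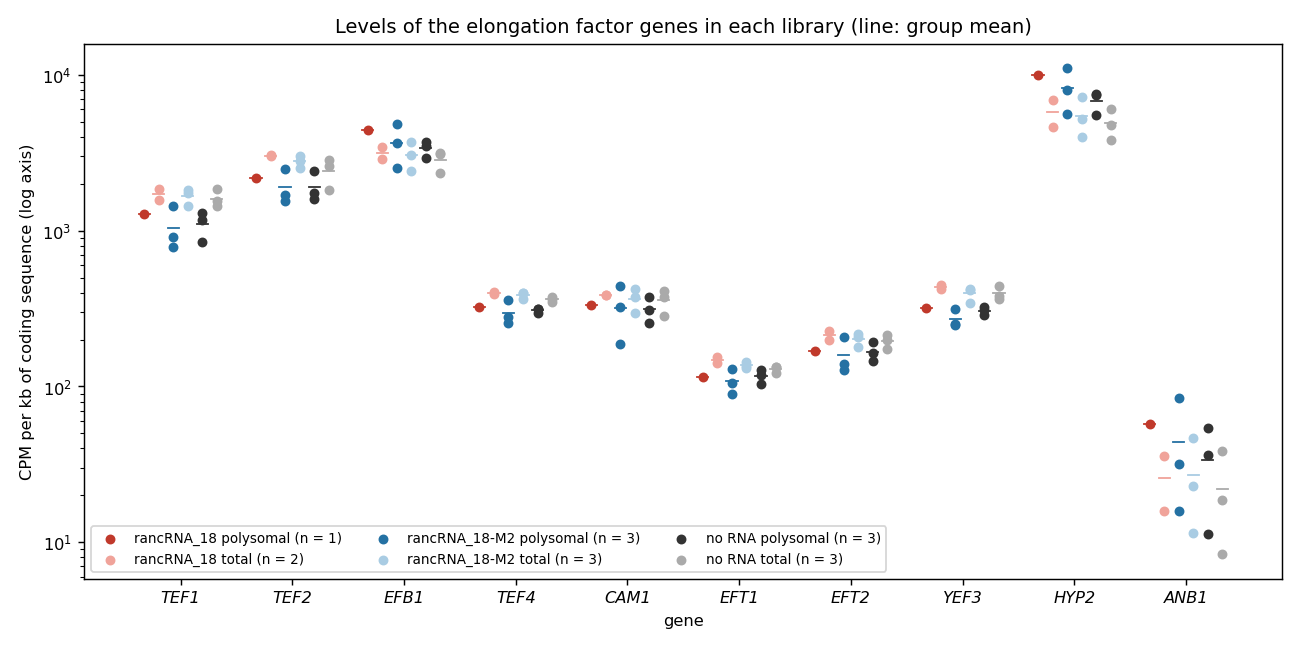
Level of each gene in CPM per kb of coding sequence (vertical, log axis) in each of the 15 libraries, by group, with a short line at the group mean. HYP2 lies highest and ANB1 lowest in every group, and the polysomal mean lies above the total mean of the same electroporation for HYP2, EFB1 and ANB1 and below it for the other 7 genes.

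The first comparison, of polysomal with total mRNA, asks which elongation factor mRNAs were more or less abundant on polysomes than in the lysate. It is relative: libraries are scaled by their size and a TMM factor, and the amount of polysomes was not measured. The factors differed within pairs, at 0.749 for rancRNA_18-M2 polysomal library 1 and 0.961 for total library 1. Ratios near 0, and the counts of pairs above total mRNA, depend on this scaling. In the fit without the block, 0 of the 10 genes were called with no RNA by edgeR's quasi-likelihood test (adjusted p under 0.05), where 0.197% of all genes were called. None of the 10 had an unadjusted p under 0.05 there, and DESeq2 called 0, with 2 at an unadjusted p under 0.05. With rancRNA_18-M2 it was also 0 of 10 by edgeR, against 0.377% of all genes (0.0819% higher and 0.295% lower). There 3 of the 10 had an unadjusted p under 0.05, and DESeq2 called 1. Shares of all genes at an unadjusted p under 0.05, or called by DESeq2, are not given here or below. Such counts therefore do not set the genes they cover apart from other genes. With the replicate block, 2 genes were called higher and 6 lower in polysomal than in total mRNA with rancRNA_18-M2, where 31.8% of all genes were called (16.8% higher and 15% lower). With no RNA, 2 were higher and 2 lower, where 21.8% of all genes were called (12.3% higher and 9.48% lower). The genes called higher were HYP2 and ANB1 in both cases. In the 6 pairs of libraries that share a replicate number and an electroporation, HYP2, ANB1 and EFB1 were above total mRNA in 6 of 6. TEF1, TEF2, TEF4, EFT1, EFT2 and YEF3 were above it in 0 of 6, and CAM1 in 1 of 6. The shares of all genes with such counts, or with groups that do not overlap, were not computed. These counts, and the overlaps given below, therefore do not set the 10 genes apart from other genes. The median over the 10 genes was -0.37 with rancRNA_18-M2 and -0.21 with no RNA on the log2 scale of the blocked fit, against -0.01 and -0.03 over all genes tested.

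**Figure D2:**
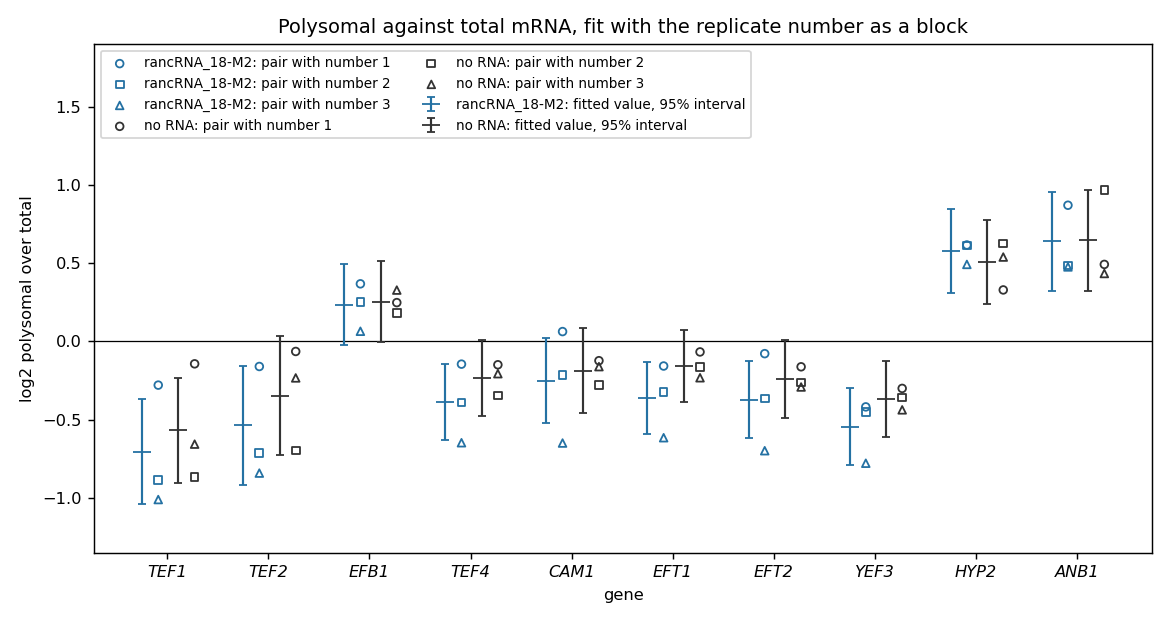
Log2 ratio of polysomal over total mRNA (vertical) for each gene with rancRNA_18-M2 (left of each pair) and no RNA. Dashes with bars are the fitted values and 95% intervals with the replicate block, and open symbols the single pairs of libraries by replicate number. HYP2 and ANB1 lie above 0 in every pair, and YEF3 between -0.78 and -0.30.

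Both genes of eEF1A, the carrier of aminoacyl-tRNA, were called lower in polysomal mRNA with rancRNA_18-M2, and TEF1 alone with no RNA. TEF1 had 1969.9, 1080 and 1255 CPM in the rancRNA_18-M2 polysomal libraries 1, 2 and 3, against 2390, 1995 and 2528 CPM in the total libraries. With no RNA it had 1787, 1166 and 1605 CPM in the polysomal libraries, against 1973, 2125 and 2529 CPM in the total libraries. No polysomal library reached the lowest total library of its electroporation, so these groups did not overlap. The log2 fold change of TEF1 in the blocked fit was -0.70 (SE 0.16, adjusted p = 0.0024) with rancRNA_18-M2 and -0.57 (SE 0.16, adjusted p = 0.016) with no RNA. Without the block these adjusted p were 0.19 and 0.48. Its partner TEF2 had 3427, 2137 and 2328 CPM in the rancRNA_18-M2 polysomal libraries, against 3828, 3499 and 4169 CPM in the total ones. With no RNA, TEF2 had 2391, 2194 and 3326 CPM in polysomal libraries, against 2499, 3556 and 3909.8 CPM in total ones; here the groups overlapped. TEF2 was called lower with rancRNA_18-M2 (log2 fold change -0.54, SE 0.18, adjusted p = 0.030) and was not called with no RNA (-0.35, SE 0.18, adjusted p = 0.19). The summed pair was -0.60 (SE 0.17, adjusted p = 0.013) with rancRNA_18-M2 and -0.43 (SE 0.17, adjusted p = 0.084) with no RNA, so the call on TEF1 with no RNA did not hold for the pair. The call on TEF1 with no RNA was also lost without total replicate 2 (-0.46), total replicate 3 (-0.49) or polysomal replicate 2 (-0.48). With rancRNA_18-M2 the call on TEF2 was lost in 5 of 14 fits that left out 1 library, most with polysomal replicate 3 left out (-0.35, against -0.86 without polysomal replicate 1), and that on TEF1 in none. With no RNA, TEF2 was called lower in 1 of 14 such fits, without total replicate 1 (-0.55).

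The 3 genes of eEF1B, which reloads eEF1A with GTP, did not move together. EFB1, the catalytic subunit, had 2989.6, 2273 and 1559 CPM in the rancRNA_18-M2 polysomal libraries 1, 2 and 3, against 2317, 1906 and 1489.9 CPM in the total ones. With no RNA it had 2311, 2175 and 1823 CPM in polysomal libraries, against 1946, 1920.3 and 1453 CPM in total ones. Every polysomal library was above the total library of the same number, although the groups overlapped. The fitted differences were 0.24 (SE 0.12, adjusted p = 0.16) and 0.25 (SE 0.12, adjusted p = 0.16), and neither was called. TEF4, a gamma subunit, had 443.8, 345 and 315 CPM in the rancRNA_18-M2 polysomal libraries, against 491, 452 and 494 CPM in the total ones. With no RNA, TEF4 had 389.7, 368 and 389.9 CPM in polysomal libraries, against 432, 467 and 449.6 CPM in total ones. The groups did not overlap in either electroporation. TEF4 was called lower with rancRNA_18-M2 (-0.39, SE 0.12, adjusted p = 0.016), a call lost without total replicate 3 (-0.33), polysomal replicate 2 (-0.35) or polysomal replicate 3 (-0.27), and had -0.24 (SE 0.12, adjusted p = 0.17) with no RNA. CAM1, the other gamma subunit, had 553, 403 and 235 CPM in the rancRNA_18-M2 polysomal libraries, against 529, 467 and 368 CPM in the total ones. With no RNA, CAM1 had 470.4, 387 and 316 CPM in polysomal libraries, against 512, 468 and 354 CPM in total ones. The groups overlapped in both electroporations, and the lowest CAM1 level of each group was that of its library 3. Its fitted values of -0.25 (SE 0.13, adjusted p = 0.16) with rancRNA_18-M2 and -0.19 (SE 0.13, adjusted p = 0.34) with no RNA were not called, although CAM1 was called lower with rancRNA_18-M2 when polysomal replicate 1 was left out (-0.43).

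eEF2, the translocase, was lower in polysomal mRNA with rancRNA_18-M2. EFT2 had 524, 352 and 324 CPM in the rancRNA_18-M2 polysomal libraries 1, 2 and 3, against 553, 453 and 525 CPM in the total ones. EFT1 had 327, 267 and 225 CPM in the polysomal libraries, against 365, 333 and 344 CPM in the total ones. The groups overlapped for EFT2 and not for EFT1. Their log2 fold changes were -0.37 (SE 0.12, adjusted p = 0.022) for EFT2 and -0.36 (SE 0.11, adjusted p = 0.017) for EFT1, and the summed pair was at -0.37 (SE 0.12, adjusted p = 0.023). Both calls were lost without rancRNA_18-M2 total replicate 3, polysomal replicate 2 or polysomal replicate 3, with EFT2 at -0.31, -0.37 and -0.23 and EFT1 at -0.29, -0.34 and -0.27. EFT2 also lost its call without total replicate 2 (-0.38). With no RNA, EFT2 had 484, 368 and 413 CPM in polysomal libraries, against 542, 441 and 506 CPM in total ones, and EFT1 320.2, 299 and 264 CPM, against 335, 335 and 310.3 CPM. Neither was called with no RNA, EFT2 at -0.24 (SE 0.12, adjusted p = 0.16) and EFT1 at -0.15 (SE 0.11, adjusted p = 0.35), nor was the summed pair (-0.21, SE 0.12, adjusted p = 0.24).

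YEF3, the gene of the fungal factor eEF3, had 982, 787 and 776 CPM in the rancRNA_18-M2 polysomal libraries 1, 2 and 3, against 1313, 1075 and 1330.5 CPM in the total ones. With no RNA it had 973, 896 and 1016 CPM in polysomal libraries, against 1198, 1149 and 1375 CPM in total ones. No polysomal library reached any total library of its electroporation. The log2 fold change was -0.54 (SE 0.12, adjusted p = 0.0015) with rancRNA_18-M2, called in 14 of 14 fits that left out 1 library. It was -0.37 (SE 0.12, adjusted p = 0.030) with no RNA, a call lost without any 1 of 5 of the 6 no RNA libraries (all but total replicate 1), with values from -0.38 to -0.30. Without the block the adjusted p was 0.16 and 0.51.

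eIF5A, by its old name an initiation factor but known for its role in elongation, had both of its genes called higher in polysomal mRNA with rancRNA_18-M2 and with no RNA. HYP2, its main gene in aerobic cells, had 5219, 3794 and 2641 CPM in the rancRNA_18-M2 polysomal libraries 1, 2 and 3, against 3405, 2481 and 1878 CPM in the total ones. With no RNA it had 3592, 3495 and 2630.3 CPM in polysomal libraries, against 2861, 2265.5 and 1809.8 CPM in total ones. The groups overlapped although each polysomal library exceeded its numbered partner. The log2 fold change of HYP2 was 0.58 (SE 0.13, adjusted p = 0.0020) with rancRNA_18-M2 and 0.51 (SE 0.13, adjusted p = 0.0085) with no RNA. ANB1, which encodes the isoform made when oxygen is low, had 40.2, 15.2 and 7.54 CPM in the rancRNA_18-M2 polysomal libraries, against 22.0, 10.8 and 5.42 CPM in the total ones. With no RNA it had 25.7, 17.2 and 5.35 CPM in polysomal libraries, against 18.3, 8.80 and 3.96 CPM in total ones. ANB1 rested on 87 to 580 reads in a library, the fewest of the 10 genes. Its log2 fold change was 0.64 (SE 0.15, adjusted p = 0.0032) with rancRNA_18-M2 and 0.65 (SE 0.15, adjusted p = 0.0057) with no RNA. Both genes were called in 14 of 14 fits that left out 1 library with rancRNA_18-M2. With no RNA they were called in 13 of 14, and without polysomal replicate 2 they had 0.43 (HYP2, adjusted p = 0.050) and 0.44 (ANB1, adjusted p = 0.065). Without the block the adjusted p of HYP2 was 0.36 with rancRNA_18-M2 and 0.63 with no RNA, and that of ANB1 0.69 and 0.85.

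With rancRNA_18 itself, polysomal mRNA was represented by 1 library, which was assumed to vary like the others and whose replicate number is open. HYP2 had 4720.1 CPM in it, against 3291 and 2185 CPM in the rancRNA_18 total libraries 1 and 2. ANB1 had 27.1 CPM in the polysomal library, against 17.1 and 7.54 CPM in the total ones. EFB1 had 2729 CPM in the polysomal library, against 2126 and 1789 CPM in the total ones. All 3 lay above both total libraries, and the other 7 genes lay below both: YEF3 had 996 CPM, against 1413 and 1320 CPM, and TEF1 1766 CPM, against 2537 and 2165 CPM. Without the block 0 of 10 were called by edgeR, with 0 at an unadjusted p under 0.05, where 0% of all genes were called; DESeq2 called 0, with 1 at an unadjusted p under 0.05. With the block and the library taken as replicate 1, HYP2 (0.62, SE 0.19, adjusted p = 0.041) and ANB1 (0.73, SE 0.22, adjusted p = 0.037) were called higher, where 12.3% of all genes were called (8.32% higher and 3.93% lower). Taken as replicate 2, HYP2 (1.002, SE 0.19, adjusted p = 0.00091), ANB1 (1.77, SE 0.22, adjusted p = 3.2e-05) and EFB1 (0.59, SE 0.19, adjusted p = 0.024) were called higher, where 29.8% of all genes were called (16.2% higher and 13.6% lower). The choice of number thus moved ANB1 by more than any library left out: in fits with the library as replicate 1, leaving out 1 library gave ANB1 0.67 to 0.83 and HYP2 0.52 to 0.78. These fits called HYP2 in 7 of 14 and ANB1 in 11 of 14, with calls lost for both without rancRNA_18 total replicate 1, rancRNA_18 total replicate 2 or rancRNA_18-M2 total replicate 1. HYP2 alone lost its call without no RNA total replicate 1, no RNA total replicate 3, rancRNA_18-M2 total replicate 3 or rancRNA_18-M2 polysomal replicate 2. EFT2 and YEF3 were called lower besides when rancRNA_18-M2 polysomal replicate 1 (-0.48 and -0.51) or 3 (-0.53 and -0.54) was left out.

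The genes differ in coding length, and polysomal against total ratios moved with length over all genes. HYP2 and ANB1 have 474 coding bases and EFB1 621; TEF4, CAM1, TEF1 and TEF2 have 1239 to 1377, EFT1 and EFT2 2529 and YEF3 3135. Over the 10 genes, Spearman's rho of coding length with the log2 ratio was -0.73 with rancRNA_18-M2 and -0.74 with no RNA, as a description over genes of the same libraries. Over the 5744 genes with a coding length it was -0.43 and -0.36. With no RNA, genes of 400 to 700 coding bases had a median of 0.27 (quartiles 0.03 and 0.47), and HYP2 (0.51) and ANB1 (0.65) lay above the upper quartile, while EFB1 (0.25) lay between the quartiles. Genes of 1200 to 1500 bases had a median of -0.07 (quartiles -0.25 and 0.06), and genes of 2500 to 3200 bases -0.08 (quartiles -0.20 and 0.03). TEF1 (-0.57), TEF2 (-0.35), EFT2 (-0.24) and YEF3 (-0.37) lay below the lower quartile of their length class, and TEF4, CAM1 and EFT1 between the quartiles. With rancRNA_18-M2 the quartiles of these classes were 0.11 and 0.57, -0.30 and 0.08, and -0.26 and 0.03. There HYP2 (0.576, just above the unrounded upper quartile of 0.574) and ANB1 (0.64) lay above their class, TEF1, TEF2, TEF4 (-0.39), EFT1 (-0.36), EFT2 (-0.37) and YEF3 below it, and EFB1 and CAM1 between the quartiles. The part of length in the ratios was not tested.

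**Figure D3:**
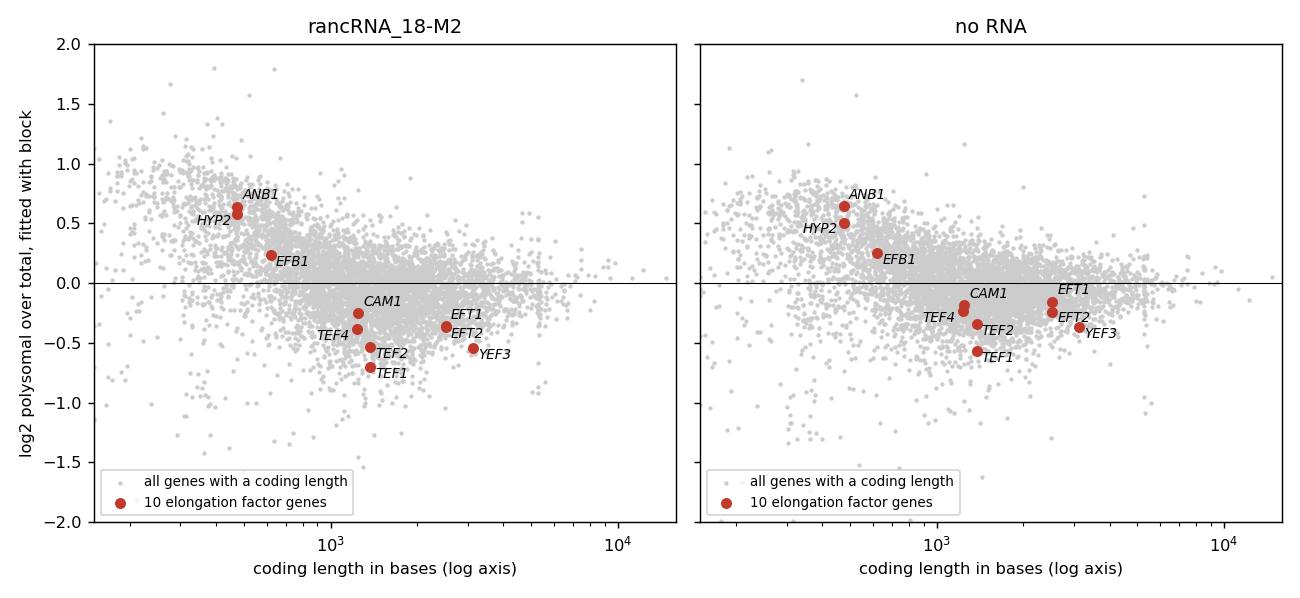
Log2 ratio of polysomal over total mRNA from the blocked fit (vertical) against coding length in bases (horizontal, log axis) with rancRNA_18-M2 (left) and no RNA (right). Grey points are all genes with a coding length, of which 40 (left) and 36 (right) lie outside the axes, and red points the 10 elongation factor genes. The short genes HYP2, ANB1 and EFB1 lie above 0 and the longer ones below it.

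The second comparison, between electroporations, asks whether rancRNA_18 or its M2 form changed the level of these mRNAs. Without the block 0 of 10 genes were called by edgeR in each of the 6 comparisons, of rancRNA_18 with no RNA, rancRNA_18-M2 with no RNA and rancRNA_18 with rancRNA_18-M2, in polysomal and in total mRNA. In each, 0% of all genes were called, and 0 of the 10 had an unadjusted p under 0.05 by edgeR or by DESeq2. TEF2 averaged 4165 ± 41.5 CPM in rancRNA_18 total mRNA, 3832 ± 335 CPM in rancRNA_18-M2 total mRNA and 3321 ± 734 CPM in no RNA total mRNA (SD, n = 2, 3 and 3). Its log2 difference from no RNA was 0.33 (95% interval -0.28 to 0.94) with rancRNA_18 and 0.21 (-0.34 to 0.75) with rancRNA_18-M2, and that of the summed TEF1 and TEF2 0.24 (-0.36 to 0.84) and 0.15 (-0.39 to 0.69). HYP2 averaged 2738 ± 782 CPM in rancRNA_18 total mRNA, 2588 ± 769 CPM in rancRNA_18-M2 total mRNA and 2312 ± 527 CPM in no RNA total mRNA (SD). The HYP2 differences were 0.24 (-0.49 to 0.98) and 0.16 (-0.50 to 0.83). For ANB1 the interval was widest, from -1.47 to 1.98 around 0.26 for rancRNA_18 against no RNA in total mRNA. In polysomal mRNA HYP2 had 4720.1 CPM in the rancRNA_18 library, 3884 ± 1291 CPM in the rancRNA_18-M2 libraries and 3239 ± 529.5 CPM in the no RNA libraries (SD, n = 3 for rancRNA_18-M2 and 3 for no RNA). Its log2 difference from no RNA was 0.54 (-0.37 to 1.45) with rancRNA_18 and 0.26 (-0.40 to 0.93) with rancRNA_18-M2. Both differences share the no RNA libraries. Between rancRNA_18 and rancRNA_18-M2, HYP2 differed by 0.28 (-0.64 to 1.203) in polysomal and by 0.08 (-0.66 to 0.82) in total mRNA, and TEF2 by 0.19 (-0.58 to 0.95) and 0.12 (-0.49 to 0.73). The replicate block narrowed these intervals. With it the HYP2 difference in total mRNA was 0.050 (-0.26 to 0.36) for rancRNA_18 against no RNA, 0.15 (-0.12 to 0.41) for rancRNA_18-M2 against no RNA and -0.10 (-0.40 to 0.21) for rancRNA_18 against rancRNA_18-M2. In polysomal mRNA it was 0.22 (-0.05 to 0.48) for rancRNA_18-M2 against no RNA. For rancRNA_18 against no RNA it was 0.17 (-0.23 to 0.56) with the single library as replicate 1 and 0.55 (0.16 to 0.93, adjusted p = 0.074) as replicate 2. TEF2 in total mRNA was at 0.40 (-0.03 to 0.84) for rancRNA_18 and 0.21 (-0.17 to 0.59) for rancRNA_18-M2 against no RNA in that fit, and the summed pair at 0.29 (-0.12 to 0.70) and 0.14 (-0.22 to 0.502). With the block ANB1 in total mRNA was at -0.17 (-0.54 to 0.20) for rancRNA_18 and 0.33 (-0.0005 to 0.65) for rancRNA_18-M2 against no RNA. Between rancRNA_18 and rancRNA_18-M2 total mRNA it was at -0.50 (-0.86 to -0.13). In polysomal mRNA ANB1 was at 0.32 (0.009 to 0.63) for rancRNA_18-M2 against no RNA. None of these was called, which does not show that the electroporations were alike. The change of the polysomal to total ratio between electroporations was called for 0 of 10 genes in all 3 contrasts, with 0% of all genes called, 0 of 10 at an unadjusted p under 0.05 by edgeR, and 0 called by DESeq2.

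A replicate block changed this for 1 gene and 1 choice of number. With the rancRNA_18 polysomal library as replicate 2, ANB1 was called higher in rancRNA_18 than in no RNA polysomal mRNA (0.95, SE 0.21, adjusted p = 0.0071), where 8.61% of all genes were called. In that fit the change of its polysomal to total ratio was 1.12 (SE 0.27, adjusted p = 0.030) for rancRNA_18 against no RNA and 1.13 (SE 0.27, adjusted p = 0.029) for rancRNA_18 against rancRNA_18-M2, where 2.77% and 2.6% of all genes were called. With the same library as replicate 1, the polysomal difference of ANB1 was -0.09 and 0 of the 10 genes were called in any of these comparisons. The single rancRNA_18 polysomal library had 27.1 CPM of ANB1, against 40.2 and 25.7 CPM in the rancRNA_18-M2 and no RNA polysomal libraries numbered 1, and 15.2 and 17.2 CPM in those numbered 2. It thus lay between the values of number 1 and above those of number 2, and its own number is open.

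The widest spread among the 10 genes ran with the replicate number. ANB1 varied 10.1-fold over the 15 libraries, from 3.96 to 40.2 CPM, and HYP2 2.88-fold, from 1809.8 to 5219 CPM, while TEF4 varied 1.58-fold. ANB1 had 7.54, 5.42, 5.35 and 3.96 CPM in the libraries numbered 3 (rancRNA_18-M2 polysomal and total, then no RNA polysomal and total). In the libraries numbered 1 of the same groups it had 40.2, 22.0, 25.7 and 18.3 CPM. All libraries numbered 3 lay below all libraries numbered 1. Over the 14 libraries with a known number, with group and number as terms, edgeR called 5 of the 10 genes lower and 0 higher in number 3 than in number 1, where 60.3% of all genes were called (31.9% higher and 28.4% lower). ANB1 had a log2 fold change of -2.24 (SE 0.13, adjusted p = 1.3e-09), HYP2 -0.75 (SE 0.11, adjusted p = 1.4e-05), CAM1 -0.67 (SE 0.11, adjusted p = 6.0e-05) and EFB1 -0.58 (SE 0.10, adjusted p = 0.00014). EFT2 was at -0.24 (SE 0.10, adjusted p = 0.047), a call lost in 6 of the 14 fits that left out 1 library: no RNA polysomal replicate 1 (-0.23) or 3 (-0.25), rancRNA_18-M2 total replicate 2 (-0.24), or rancRNA_18-M2 polysomal replicate 1 (-0.16), 2 (-0.24) or 3 (-0.13). It was also lost with no filter on low counts (-0.23). EFT1 had -0.21 (SE 0.09, adjusted p = 0.057), and the summed eEF2 pair -0.23 (SE 0.10, adjusted p = 0.055), neither of them called. TEF1 (-0.07), TEF2 (0.18), TEF4 (-0.08), YEF3 (0.01) and the summed eEF1A pair (0.09) were not called either. Between numbers 2 and 1, 4 of 10 were lower in number 2, where 40.1% of all genes were called (19.6% higher and 20.5% lower): ANB1 (-1.05, SE 0.12), HYP2 (-0.38, SE 0.10), EFT2 (-0.36, SE 0.09) and TEF1 (-0.39, SE 0.12). TEF1 lost this call without no RNA polysomal replicate 2 (-0.34), rancRNA_18-M2 polysomal replicate 1 (-0.22) or rancRNA_18-M2 polysomal replicate 2 (-0.33). Of the summed pairs, EFT1 and EFT2 were called lower in number 2 (-0.24, SE 0.09, adjusted p = 0.040) and TEF1 and TEF2 were not (-0.21, SE 0.13, adjusted p = 0.21). What the replicate number stands for was not given in the sources used here.

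ANB1 is a textbook gene of the response to low oxygen: the repressor Rox1, made with oxygen and heme, shuts it off in aerobic cells, and its neighbour on the chromosome, transcribed away from it, is CYC1, the gene of the aerobic cytochrome c. In the 500 bases before each start codon in R64, the Rox1 motif ATTGTTCTC was searched on both strands. It occurs in 68 of 6000 genes with such a window (1.13%). ANB1 has 2 matches, starting 281 and 214 bases before the start codon on the strand of the gene, and the other 9 genes, HYP2 included, have none. Both are given with 8 flanking bases on each side and the motif in capitals, because ANB1 alone of the 10 genes has this match.
ANB1 at 281: ttcgccctATTGTTCTCgagcctaa
ANB1 at 214: cctattccATTGTTCTCtttggtaa
Beside ANB1, 9 genes known from the low-oxygen response were counted, with 3 aerobic genes. One of the 9 is ROX1, the repressor itself. In number 3 against number 1, 5 of the other 8 were lower and 1 higher, where 28.4% of all genes were lower and 31.9% higher. HEM13, of heme synthesis, had -1.25 (SE 0.10), and TIR1, a cell wall protein gene, -1.15 (SE 0.11). OLE1, the fatty acid desaturase gene, had 1.62 (SE 0.13), and ROX1 itself 1.14 (SE 0.11). ROX1 had 109.9, 195, 109 and 189 CPM in the libraries numbered 3, against 64.8, 97.6, 42.4 and 66.6 CPM in those numbered 1, in the order of groups used for ANB1. The aerobic CYC1 was also lower in number 3 than in number 1 (-1.56, SE 0.11), as was COX5A (-0.79, SE 0.09), while HMG1 was higher (0.45, SE 0.08). The highest adjusted p among these 7 genes, that of HMG1 by edgeR, was 0.00014. ROX1 and ANB1 thus lay in opposite directions, while HEM13 and TIR1 lay in the same direction as the aerobic CYC1 and COX5A. The part of oxygen was not tested.

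**Figure D4:**
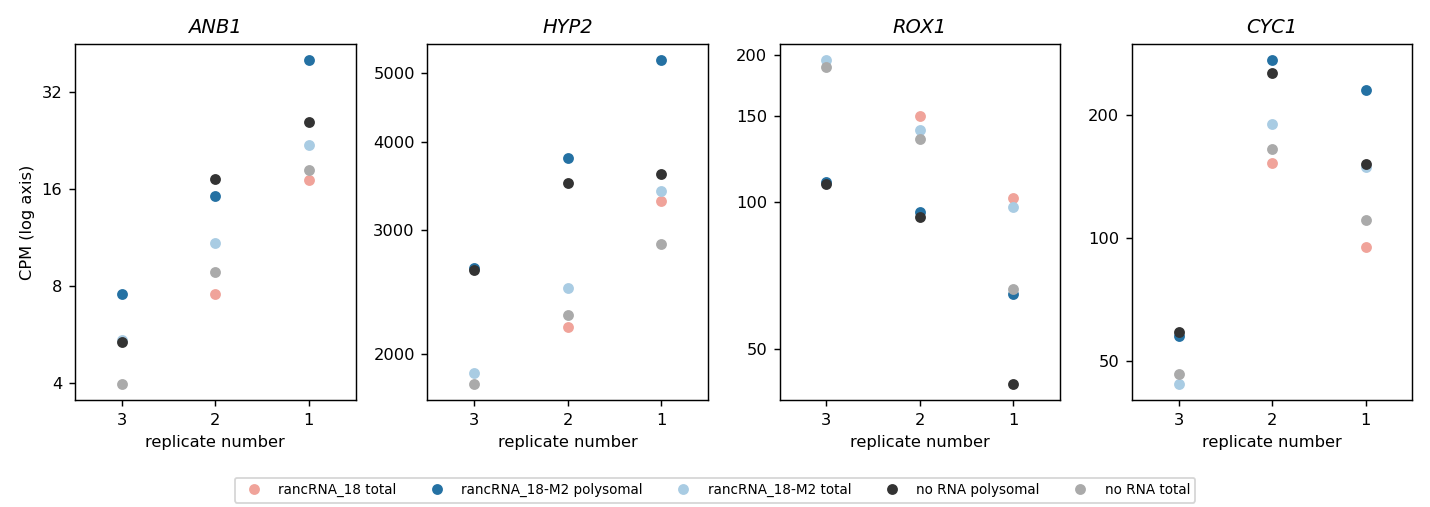
Level in CPM (vertical, log axes) of ANB1, HYP2, ROX1 and CYC1 in the 14 libraries with a known replicate number (horizontal), coloured by group. In the 4 groups with all 3 numbers, ANB1 and HYP2 are lowest in number 3; in all 5 groups ROX1 is lowest in number 1 and CYC1 highest in number 2.

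The share of each gene in its pair also differed between the numbers. Reads given to EFT1 made up 42.4 to 44.9% of the EFT1 and EFT2 reads in the 5 libraries numbered 2, against 38.0 to 41.0% in number 3 and 38.2 to 39.8% in number 1, so number 2 did not overlap the others. TEF4 made up 55.2 to 57.3% of TEF4 and CAM1 reads in number 3, against 44.5 to 50.2% in number 1 and 46.1 to 50.8% in number 2. TEF1 made up 33.6 to 36.5% of the TEF1 and TEF2 reads in rancRNA_18-M2 polysomal libraries, against 36.3 to 38.4% in total ones, and 32.6 to 42.8% in no RNA polysomal libraries, against 37.4 to 44.1% in total ones. ANB1 was 0.20 to 0.76% of the eIF5A reads of a library. For TEF4 and CAM1, whose reads can be told apart, the shares rest on reads of 1 gene each. For EFT1 and EFT2, and for TEF1 and TEF2, the shares may rest on shared reads too. How those were counted was not given, and their part in the shares was not tested.

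**Figure D5:**
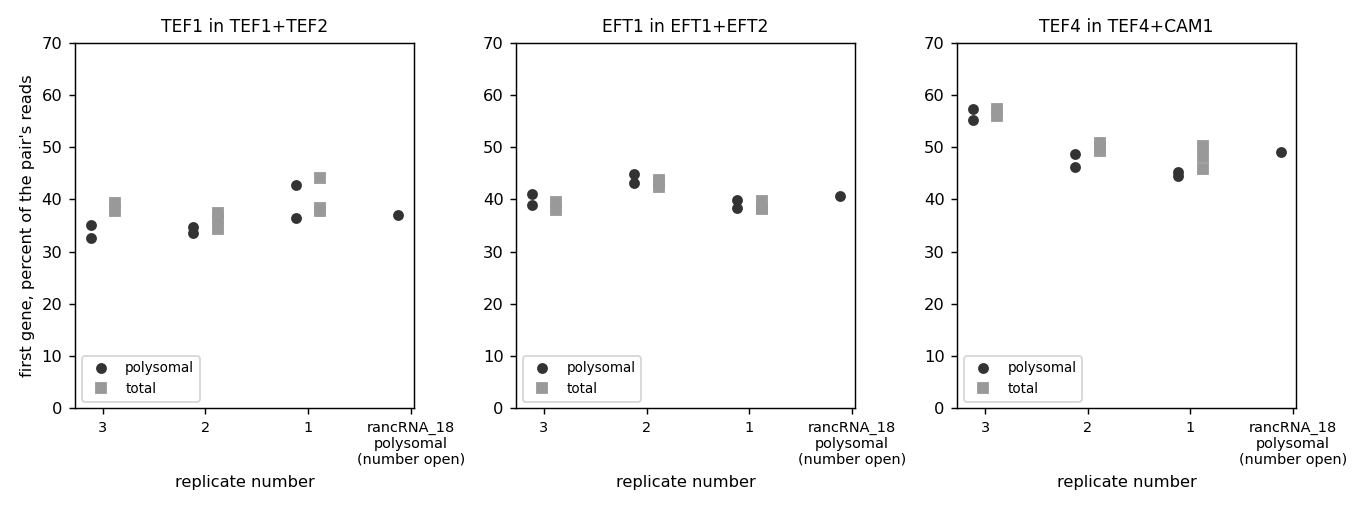
Share of the first gene in the reads of its pair, in percent (vertical), by replicate number (horizontal) for polysomal (circles) and total libraries (squares); the rancRNA_18 polysomal library stands apart because its number is open. EFT1 is highest in number 2, at 42.4 to 44.9%, and TEF4 in number 3, at 55.2 to 57.3%.

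Across the 15 libraries TEF1, TEF2, TEF4, EFT1, EFT2 and YEF3 correlated with each other with Pearson's r of 0.65 to 0.93 on log2 CPM. EFB1, HYP2 and ANB1 correlated with each other with r of 0.91 to 0.95. CAM1 had r of 0.29 to 0.81 with genes of the larger set and of 0.35 to 0.61 with EFB1, HYP2 and ANB1. The lowest and highest pairs of the larger set were TEF2 with EFT1 and TEF1 with YEF3. These are descriptions over libraries that share fraction, number and scaling. The genes most like YEF3 among 4393 were ERG25, of ergosterol synthesis (r = 0.967), DAK1, a dihydroxyacetone kinase gene (r = 0.966), and CDC48, the gene of an AAA ATPase (r = 0.948). Those most like ANB1 were GLO2, a glyoxalase gene (r = 0.964), SCS2, of contacts between endoplasmic reticulum and plasma membrane (r = 0.962), and CCS1, a copper chaperone gene (r = 0.956).

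Of the 10 promoters, 2 held a match to the motif of Rap1, an activator of translation genes. The letters CACCCA and ACA separated by any 1 base, searched on both strands of the 500 bases before the start codon, occur in 83 of 6000 genes (1.38%). TEF2 has 1 match 436 bases before its start codon on its own strand, and TEF4 has 1 at 389 bases on the opposite strand, both shown 5′ to 3′ on the strand of the match with the motif in capitals.
TEF2: tcatgttgCACCCACACAtttataca
TEF4: aaaagtttCACCCAGACAccaaattg
The other 8 genes have no match to these letters in this window.

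Genes that act with or on the factors were counted beside them. The share of all genes called was 16.8% higher and 15% lower in polysomal mRNA with rancRNA_18-M2, and 12.3% higher and 9.48% lower with no RNA. Of 7 relatives, among them HEF3, a second eEF3 gene, and NEW1, an ATPase related to eEF3, 0 were called in the blocked fit of polysomal against total mRNA with no RNA (3 had an unadjusted p under 0.05), and 2 were lower with rancRNA_18-M2, HEF3 at -0.41 (SE 0.10, adjusted p = 0.0047) and NEW1 at -0.36 (SE 0.10, adjusted p = 0.0080). In number 3 against number 1, 6 of the 7 were higher, where 31.9% of all genes were, HEF3 by 0.52 (SE 0.08) and NEW1 by 0.56 (SE 0.08), where YEF3 had 0.01. Of 18 genes for the modification or folding of the factors, 6 were higher and 3 lower in polysomal mRNA with rancRNA_18-M2, and 5 and 2 with no RNA; the 3 and 2 lower genes are close to the share over all genes. CHP1, a chaperone for eEF1A, had 0.77 (SE 0.14, adjusted p = 0.00035) with rancRNA_18-M2 and 0.56 (SE 0.14, adjusted p = 0.0071) with no RNA. EFM6, a methyltransferase acting on eEF1A, had -1.25 (SE 0.23, adjusted p = 0.00040) and -1.55 (SE 0.23, adjusted p = 0.00028). Its level was low, with means of 2.3 CPM in polysomal and 5.4 CPM in total mRNA with rancRNA_18-M2. With no RNA the means were 2.0 and 5.9 CPM. Of 21 initiation factor genes, 3 were higher and 8 lower with rancRNA_18-M2, and 3 and 3 with no RNA, with medians of -0.18 and -0.01. Of 132 ribosomal protein genes, 118 were higher and 0 lower with rancRNA_18-M2 and 114 and 1 with no RNA, with medians of 0.80 and 0.63. Of the 10 elongation factor genes, 2 were higher and 6 lower with rancRNA_18-M2 and 2 and 2 with no RNA, with medians of -0.37 and -0.21; the difference between these lists was not tested.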

How the data were processed

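Poly(A) RNA of 16 samples in 6 groups was sequenced. The authors deposited raw read counts per gene, 1 file per sample, without normalization. The tools were FastQC, HISAT2 and featureCounts, per the submitters' processing notes, and the kit was stranded, per the labels' protocols. Versions, genome build, strand setting and the treatment of multiply matching reads were not given in the sources used here. Of 7126 gene IDs, 6048 matched RefSeq assembly R64, used for names, lengths and sequences. Both rancRNA_18 polysomal files were identical in all 7126 genes, against 6404 to 6533 differing genes in other pairs, and count as 1 library, leaving 15.

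Counts were tested with edgeR 4.0.16 (quasi-likelihood, robust, TMM factors 0.749 to 1.186, filterByExpr, 6106 genes, 12 comparisons, 9 residual degrees of freedom) in R 4.3.3 with limma 3.58.1; Benjamini-Hochberg adjusted p under 0.05 is a call, over all genes tested. Alternatives were DESeq2 1.42.0, RLE factors, no filter, summed pairs, each library left out, and the replicate number as a block (7 residual degrees of freedom). Numbers come from the titles. All 26 same-number pairs correlated (r 0.429 to 0.794), and 52 others ran from -0.587 to 0.03. In all, 14 of 14 libraries correlated best with their own number, so pairing comes from the data. Deviations from a group mean sum to 0, so the 52 values are not separate support beside the 26. The block combined with RLE factors or with a library left out, and the comparisons of replicate numbers (6016 genes), were chosen after seeing the data. Per-pair log2 ratios used CPM with nothing added, and correlations between genes used log2 of CPM plus 0.5. The test was tested on simulated data with known changes. All 10 members are named, with up to 4 genes of smallest p from other lists. Members and lists were chosen with earlier results of these data known.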

Additional observations from a re-analysis of the deposited data

How the results depend on the processing

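The replicate block decided the calls on polysomal against total mRNA. Without it 0 of the 10 genes were called in each of the 12 comparisons, in every fit that left out 1 library (0 to 0), with RLE factors, with no filter and with summed pairs; DESeq2 called 1 with rancRNA_18-M2. With the replicate block 2 or 3 were called for rancRNA_18 (its polysomal library as replicate 1 or 2), 8 for rancRNA_18-M2 and 4 for no RNA. Summing near-identical pairs within the block gave 2 or 3, 6 and 3 features in that order. Leaving out 1 library within the block gave 0 to 4 calls for rancRNA_18, 4 to 9 for rancRNA_18-M2 and 0 to 5 for no RNA. The 0 with no RNA came without polysomal replicate 2, and calls fell to 2 without total replicate 2 or 3. With rancRNA_18-M2 calls fell to 4 without total replicate 3, polysomal replicate 2 or polysomal replicate 3. RLE factors within the block gave 2, 8 and 4 calls. The shares of all genes called in these alternative fits, DESeq2 included, are not given here. The counts therefore describe the 10 genes only and do not set them apart from other genes. As replicate 2, 1 gene was called, ANB1, for rancRNA_18 against no RNA in polysomal mRNA and in the 2 ratio changes with rancRNA_18, also with summed pairs (1). The rancRNA_18 polysomal library itself cannot be left out.

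Some differences between electroporations changed sign. Of those given here, none was called without the block. With it, on all libraries, only ANB1 was called, in rancRNA_18 against no RNA polysomal mRNA as replicate 2 (0.95). Without the block that difference was 0.76. ANB1 in rancRNA_18 against no RNA was -0.169 in total mRNA with the block (-0.168 with summed pairs) and -0.089 in polysomal mRNA as replicate 1 (-0.089 with summed pairs). TEF2 in rancRNA_18-M2 against no RNA polysomal mRNA was 0.013 with RLE factors, 0.013 by DESeq2 and 0.016 with the block. Leaving out 1 library moved it from -0.24 to 0.20. In total mRNA, HYP2 moved from -0.080 to 0.51 for rancRNA_18 and from -0.078 to 0.35 for rancRNA_18-M2 against no RNA, and ANB1 from -0.44 to 0.95 and from -0.33 to 0.999. In rancRNA_18-M2 against no RNA polysomal mRNA, HYP2 moved from -0.01 to 0.48 and ANB1 from -0.50 to 0.90. The cause was not tested. Calls on replicate numbers were 4 to 6 (3 against 1) and 3 to 5 (2 against 1), again without the share of all genes called in each fit. Depth limits ANB1 most, at 87 reads in its lowest library.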
